A study of Mus musculus with 26 samples.

Results

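The NFAT transcription factors, the calcineurin subunits that switch them on and the inhibitors that hold calcineurin back were followed in TCR_Tg101, the CD8+ T cells of a TCR transgenic mouse. The set held 10 of the 35865 genes with transcripts in the files and was chosen by name: *Nfatc1*, *Nfatc2*, *Nfatc3*, *Nfat5*, *Ppp3ca*, *Ppp3cb*, *Ppp3cc*, *Rcan1*, *Rcan3* and *Cabin1*. All 10 passed the filter on low counts. TCR_Tg101 carry a receptor taken from 1 CD8+ T cell clone, T15, that sees an antigen native to the C1498 leukemia, and the donor mice were Rag2-/-, so every cell had the same receptor. Naive cells labelled with CellTrace Violet (CTV), a dye that is diluted at each division, were transferred into B6.SJL or C57BL/6 hosts. The paper's methods name both host strains. The hosts, which kept their own T cells, received C1498 cells intravenously a day later. TCR_Tg101 were sorted back and their RNA was sequenced. The labels describe all samples as strain C57BL/6, wild type and 6 weeks old.

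There were 14 libraries in 7 groups. The 3 control libraries came from spleen: controls 1 and 2 were naive cells at day 0, and control 3 was cells kept for 18 days in leukemia-free mice. The undivided library was CTV-high cells from the spleen of a leukemia-bearing mouse at day 18. Cells from leukemia-bearing spleen were taken at day 7 (early spleen, 2 libraries) and day 14 (mid spleen, 1 library). Cells from leukemia-bearing liver were taken at day 7 (early liver, 2 libraries), at day 13 or 14 (mid liver, 3 libraries) and at day 16 or 18 (late liver, 2 libraries). Control 1, mid liver 1 and late liver 1 belong to a series titled TG and the other 11 libraries to a series titled XC, which is treated as the sequencing batch. No label states whether libraries of a group came from separate mice, so p-values measure the spread between these samples, which may be technical. Liver libraries differ from controls in both tissue and leukemia, which cannot be told apart in a comparison of liver with control. All liver libraries but late liver 1, which shares day 18 with control 3, also differ from every control in day. Libraries held between 22918996 and 71358287 estimated counts.

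As background, a signal from the T cell receptor opens calcium channels, and calcium bound to calmodulin activates calcineurin, a phosphatase made of a catalytic A subunit and a regulatory B subunit. Calcineurin strips phosphates from NFATc proteins, which then enter the nucleus and, with partners such as AP-1, switch on cytokine genes. NFAT acting without AP-1 is known for driving genes of T cell anergy and exhaustion. *Nfatc1* is known for an inducible promoter that gives a short protein form in activated lymphocytes, and *Rcan1* is known for an internal promoter that NFAT itself activates. NFAT5 differs from the rest: it answers to osmotic stress and does not need calcineurin.

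The sorted cells carried the transcripts expected of CD8+ T cells in every library. The 6 CD8 T cell markers summed to between 3664 counts-per-million (CPM, on trimmed-mean scaled library sizes) in early liver 1 and 8598 CPM in late liver 1, and *Cd4* did not exceed 5.35 CPM. Markers of other cells were unevenly spread. The 6 hepatocyte markers summed to at most 0.325 CPM in the controls but to 176 CPM in mid liver 1, 290 CPM in late liver 1 and 65.9 CPM in late liver 2, with *Alb*, which encodes albumin, highest at 132 CPM. Red cell markers (2 globin genes) summed to 2451 CPM in control 1 and 9861 CPM in control 2 against 62.7 CPM in control 3. The 6 myeloid markers summed to 465 CPM in control 1 and 99.4 CPM in control 2 against 8.25 CPM in control 3, led in control 1 by *Csf1r* at 185 CPM, while the Kupffer cell gene *Clec4f* was at 0 there. Of the 3 tested hepatocyte markers 2 reached 10 counts in no control and so could pass the filter only by being higher elsewhere. In mid and late liver both red cell markers and 3 of 4 tested myeloid markers were called lower. The 4 B cell markers lay between 11.7 and 44.2 CPM in sum, and 2 of the 3 tested were called lower in mid and late liver. The 4 endothelial markers summed to between 66.4 and 188 CPM and were led by *Pecam1*, which T cells also express, and 1 of the 2 tested was called lower. The part of these cells in the values below was not tested. In bulk RNA, fewer cells of a type and less RNA per cell cannot be told apart.

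Among the NFAT genes, *Nfatc1* rose in mid liver, in late liver and in mid and late liver together. *Nfatc3* fell in late liver and in mid and late liver together, but did not pass the test in mid liver alone. *Nfatc2* and *Nfat5* did not pass the test, although *Nfat5* passed under several alternatives given with it. *Nfatc1* (ENSMUSG00000033016.16, GRCm38 chromosome 18, 80606205 to 80713071, minus strand) stood at 152, 307 and 295 CPM in controls 1 to 3. It was at 263, 954 and 830 CPM in mid liver 1 to 3, and at 463 and 1090 CPM in late liver 1 and 2. The TG libraries were lowest in each of these groups, so that mid liver 1 lay among the controls over all libraries, while within each series every mid and late liver library lay above every control. The mean over mid and late liver was 2.39 times the control in the TG series (2 libraries against 1) and 3.18 times in the XC series (3 against 2). In edgeR's quasi-likelihood test with series in the model, the log2 fold change of mid and late liver against control was 1.53 (SE 0.265, adjusted p = 0.00638). It was 1.30 (SE 0.283, adjusted p = 0.022) for mid liver and 1.76 (SE 0.308, adjusted p = 0.0101) for late liver. Without control 1, the only TG control, the log2 fold change was 1.73 and the adjusted p rose to 0.054, and within the XC series alone it was 1.69 with an adjusted p of 0.0998. Without the series term the adjusted p was 0.0537, and it was 0.113 for mid liver and 0.0827 for late liver. The call for mid liver alone was lost without any one of controls 1 to 3, mid liver 1 or mid liver 3 (adjusted p from 0.0508 to 0.102). That for late liver was lost without control 1 (adjusted p = 0.054). Leaving out late liver 1 or late liver 2 leaves 1 late library, so only the late liver log2 fold changes are given, 1.71 and 1.86.

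These calls need their background, since a large part of the transcriptome moved. In mid and late liver against control 47.3% of 14600 tested genes passed an adjusted p of 0.05, 23.5% higher and 23.8% lower, and 2 of the 10 members did. In mid liver 1 of the 10 passed against 31.3% of all genes, and in late liver 2 of the 10 against 37.5%. These shares rest on single libraries. The 6905 genes called by edgeR in mid and late liver became 6 without control 1 and 3868 without late liver 1. The 4567 of mid liver became 2355 without control 3 and at most 1 without control 1, control 2, mid liver 1 or mid liver 3. The 5475 of late liver became 148 without control 1 and 3390 without control 2. Leaving out late liver 1 or late liver 2 leaves 1 late library, so no count is given there. The median log2 fold change of the members was -0.0008 beside -0.054 for all genes tested. Over all libraries the mid and late liver values of all 10 members overlapped the controls, whereas 19.6% of tested genes lay wholly above and 18.1% wholly below. Within both series *Nfatc1* lay above the controls, as did 28.6% of all genes tested, and *Nfatc3* and *Ppp3ca* lay below, as did 27% of all genes tested.

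**Figure D1:**
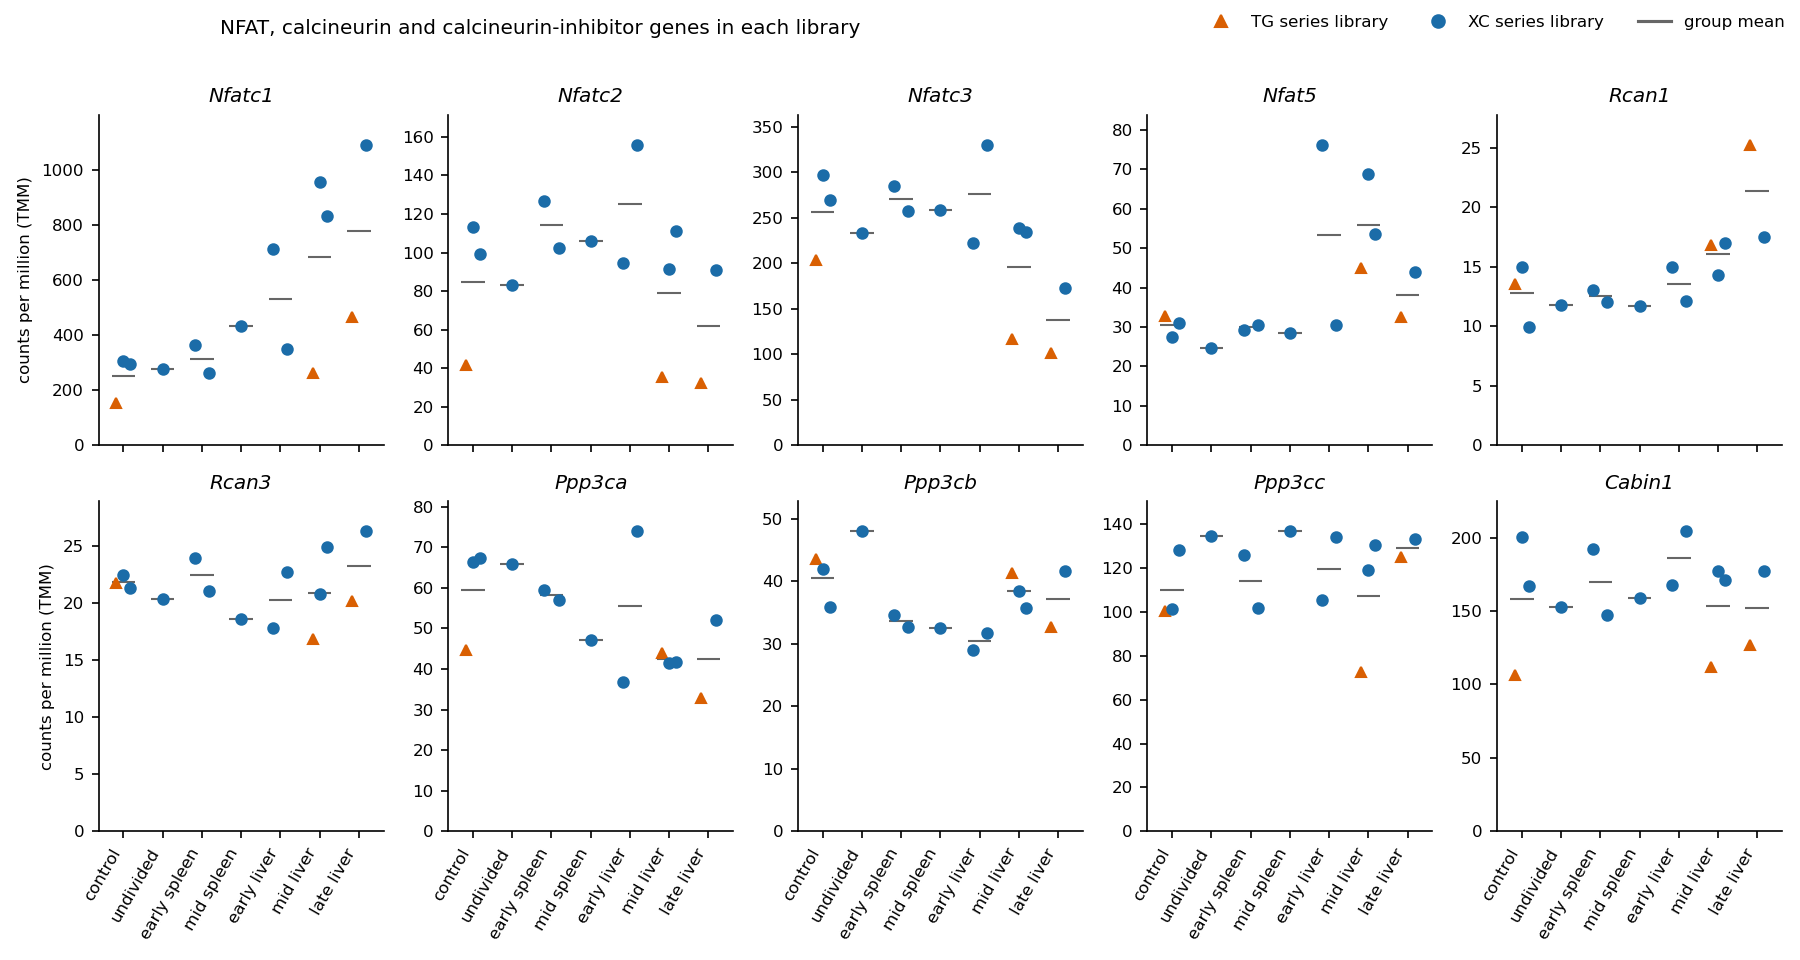
CPM (trimmed-mean scaled, linear axis from 0) of the 10 genes in 14 libraries, by group, with triangles for the TG series, circles for the XC series and a line at the group mean. Nfatc1 climbed to 1090 CPM in late liver 2, Nfatc3 was lowest in late liver 1 at 101 CPM, and the TG libraries lay low for Nfatc1, Nfatc2, Nfatc3 and Cabin1 in each group that holds one.

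*Nfatc3* (chromosome 8, 106058840 to 106130537), which per length had the highest control level of the NFAT genes after *Nfatc1*, stood at 204, 297 and 270 CPM in controls 1 to 3. It was at 117, 238 and 234 CPM in mid liver and at 101 and 173 CPM in late liver. Within each series every mid and late library was below every control, by 46.5% on average in TG and 24.1% in XC. The log2 fold change of mid and late liver against control was -0.65 (SE 0.18, adjusted p = 0.0183), and that of late liver was -0.84 (SE 0.233, adjusted p = 0.0247). Mid liver alone gave -0.46 and an adjusted p of 0.106, and passed without early liver 1 (0.0407) or early liver 2 (0.0393). The call for mid and late liver was lost when 1 of 4 libraries was left out, with adjusted p = 0.132 without control 1, 0.051 without control 2, 0.0685 without late liver 1 and 0.0614 without late liver 2. It was also lost without the series term (-0.67, adjusted p = 0.131) and in the XC series alone (-0.51, adjusted p = 0.175). The late liver call was lost without control 1 or control 2 (adjusted p of 0.119 and 0.0531). Without late liver 1 or late liver 2, where 1 late library remains, the late liver log2 fold change was -0.81 or -0.83.

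*Nfatc2* (chromosome 2, 168476410 to 168601657), an NFAT gene known from resting T cells, mostly followed the series. It was at 41.4 CPM in control 1 against 113 and 99.4 CPM in controls 2 and 3. Mid liver gave 35.2, 91.3 and 111 CPM and late liver 32.2 and 91 CPM, again with the TG library lowest each time. Its log2 fold change in mid and late liver was -0.22 (SE 0.186, adjusted p = 0.34). Its highest value in the set was 156 CPM, in early liver 2.

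*Nfat5* (chromosome 8, 107293470 to 107379517) was even among the spleen libraries and uneven among the liver ones. Controls 1 to 3 were at 32.9, 27.4 and 31 CPM, and the undivided, early spleen and mid spleen libraries lay between 24.8 and 30.5 CPM. Mid liver gave 44.9, 68.9 and 53.6 CPM, all above every control, and late liver 32.4 and 43.9 CPM, the first of which lay among the controls. Per length, controls 1 to 3 were at 4.06, 4.44 and 5.55 TPM. Mid liver 1 and late liver 1 lay below them at 4.05 and 2.32 TPM. Mid liver 2 and 3 and late liver 2 lay above them at 12.9, 7.45 and 6.7 TPM. The log2 fold change was 0.58 (SE 0.292, adjusted p = 0.131) for mid and late liver and 0.83 (SE 0.322, adjusted p = 0.0748) for mid liver. The mid and late contrast passed when early liver 1 or early liver 2 was left out of the model (log2 fold changes of 0.57 and 0.56, adjusted p of 0.0218 in each). Mid liver alone passed in DESeq2 (adjusted p = 0.0389), without a filter on low counts (0.00791) and without early liver 1 (0.00879) or early liver 2 (0.00861).

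The *Nfatc1* transcripts changed more than the gene. Its annotated transcripts begin at an upstream start (chromosome 18, 80712766 to 80713071, 3 transcripts), at a downstream start (80708173, 3 transcripts) or far inside the gene (80608975, 1 short transcript). The shares of these starts were taken from transcripts-per-million (TPM, abundance per length). The upstream start held 2.26%, 7.38% and 20.1% of *Nfatc1* TPM in controls 1 to 3. It held 43.9%, 92% and 91.4% in mid liver 1 to 3 and 62.8% and 93.3% in late liver 1 and 2. Every mid and late liver library was thus above every control, over all libraries and in both series. The mean was 76.7% ± 22.4 (SD, n = 5) in mid and late liver and 9.9% ± 9.16 (SD, n = 3) in controls, a difference of 66.8 percentage points (two-sided exact permutation test, p = 0.0357, the smallest this design allows). Adjusted over the 8 start shares of *Nfatc1* and *Rcan1* the p was 0.143. The permutation leaves the series out of account. The downstream start held 22.9% ± 21.6 (SD, n = 5) against 86% ± 6.23 (SD, n = 3).

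The upstream share was also read in the remaining libraries. The 2 early spleen libraries were at 39% and 22.7%, the undivided library at 36.6% and mid spleen at 58%. The 2 early liver libraries parted widely, at 88.4% in early liver 1 and 25.2% in early liver 2. The oligo-dT library, a further day 0 preparation kept out of the groups, was at 0.82%. All 3 controls were below the lowest of these leukemia-bearing libraries, and the highest control was the one kept for 18 days in leukemia-free mice.

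**Figure D2:**
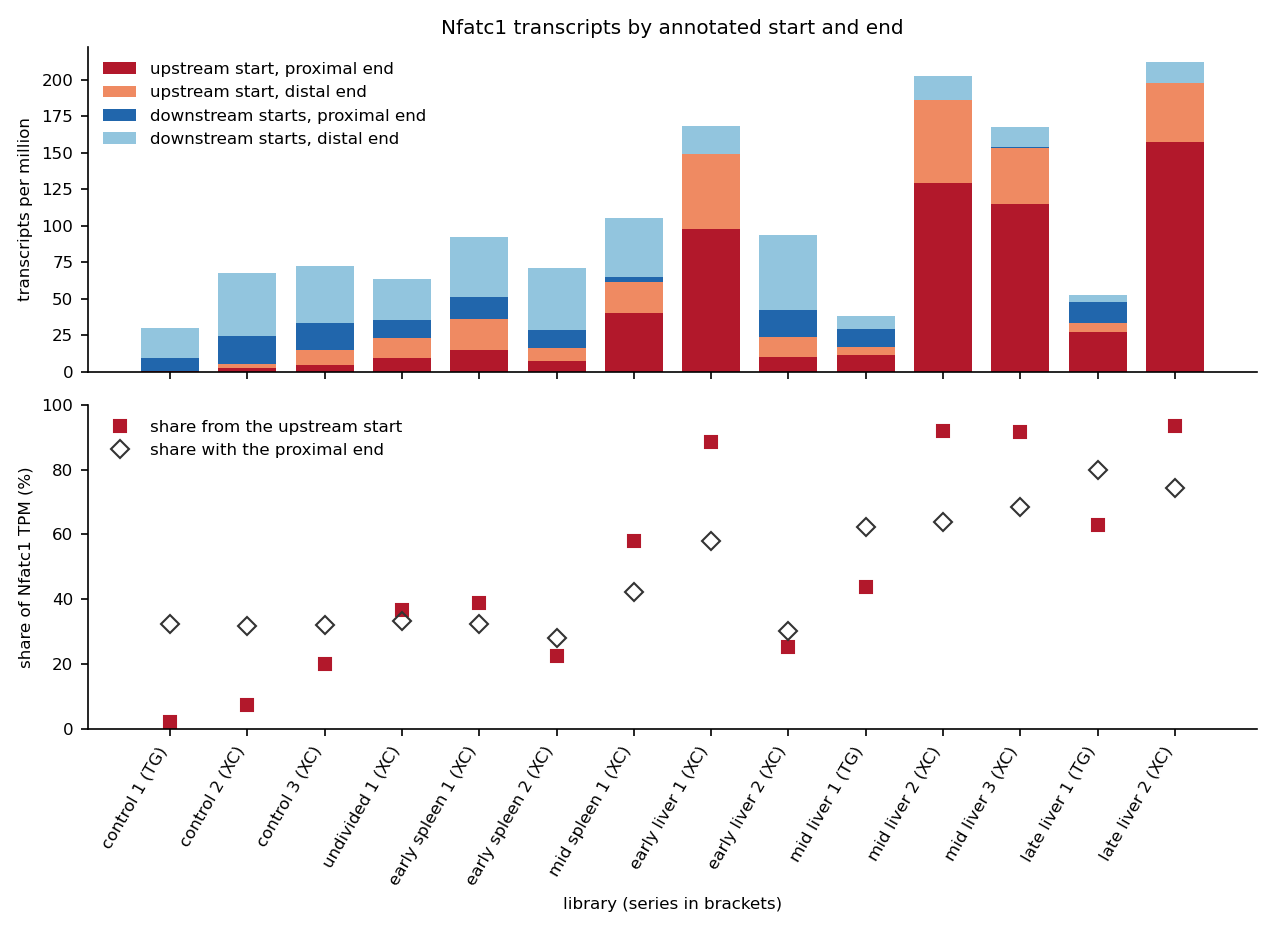
Upper panel, Nfatc1 TPM in each of 14 libraries, stacked by annotated start and end, with the short internal transcript counted among the downstream starts. Lower panel, the percentage of Nfatc1 TPM from the upstream start (squares) and with the proximal end (diamonds), rising from 2.26% to 20.1% in controls to 43.9% to 93.3% in mid and late liver for the start.

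The added *Nfatc1* reads were mostly assigned to the upstream transcripts. They were at 4.02, 23.6 and 61.3 CPM in controls 1 to 3, at 122, 883 and 764 CPM in mid liver and at 297 and 1023 CPM in late liver. The downstream transcripts were at 145, 283 and 234 CPM in controls, at 140, 70.6 and 65.7 CPM in mid liver and at 166 and 67.1 CPM in late liver. When the starts were entered as separate rows of the count table, a step chosen after seeing the data, the upstream start had a log2 fold change of 4.86 (SE 0.792, adjusted p = 0.00659) in mid and late liver. The downstream start had -1.31 (SE 0.494, adjusted p = 0.06). DESeq2 called it lower (-1.29, adjusted p = 0.0101), as did edgeR without early liver 1 (0.0285) or early liver 2 (0.0277), and without control 1 it was -1.94 (0.0552). In the TG series the downstream transcripts were at 145 CPM in the control and at 140 and 166 CPM in liver, whereas in XC they were lower in all 3 mid and late libraries than in both controls. Without control 1 the upstream log2 fold change was 4.49 with an adjusted p of 0.0552, and in the XC series alone 4.41 with an adjusted p of 0.0999. Only 432 exonic bases of the upstream transcripts and 140 of the downstream ones are not shared with another start, so the split rests on the authors' assignment of reads to transcripts.

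The ends shifted as well. Transcripts with the proximal end (last base 80647435), which leave out the exons nearest the far end of the gene, made up 32.3%, 31.9% and 32.2% of *Nfatc1* TPM in controls. Their share was 62.2%, 63.9% and 68.5% in mid liver and 79.8% and 74.4% in late liver. Early liver 1 was at 58% and early liver 2 at 30.4%, and mid spleen was at 42.2%. The 1 transcript with both the upstream start and the proximal end went from 0.664, 2.26 and 4.56 TPM in controls to 129 and 115 TPM in mid liver 2 and 3 and to 158 TPM in late liver 2. It was at 11.3 and 27.5 TPM in the TG libraries mid liver 1 and late liver 1.

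With *Nfatc1* up and *Nfatc3* down, the make-up of the NFATc transcripts changed. Per length, *Nfatc1* was 44.2% ± 1.46 (SD, n = 3) of the summed *Nfatc1*, *Nfatc2* and *Nfatc3* TPM in controls, 72% ± 4.5 (SD, n = 3) in mid liver and 81.2% ± 1.31 (SD, n = 2) in late liver. The *Nfatc3* share, 42.2% ± 3.33 (SD, n = 3) among controls, was 20.2% ± 3.39 in mid liver (SD, n = 3) and 13.3% ± 1.71 in late liver (SD, n = 2), and that of *Nfatc2* was 13.7%, 7.8% and 5.52%. The TG and XC libraries lay close on this ratio: *Nfatc1* ran from 42.6% to 45.4% over the controls and from 67.4% to 82.2% over mid and late liver. Undivided cells were at 47.3%, early spleen at 48.3% and 43%, mid spleen at 56.4%, and early liver at 69.8% and 42.4%. These shares are descriptions and were not tested.

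**Figure D3:**
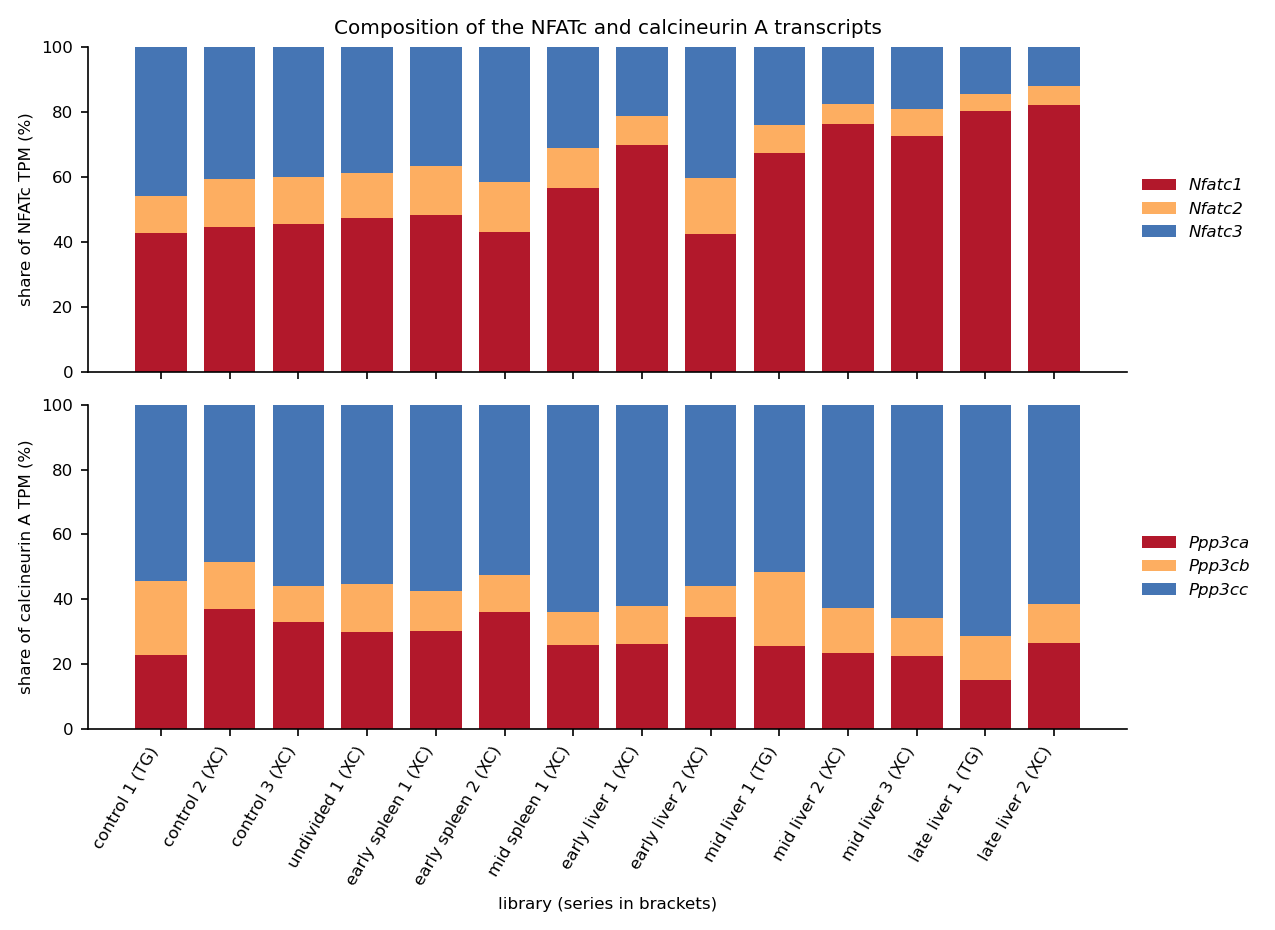
Share of summed TPM (percent) held by each NFATc gene (upper panel) and each calcineurin A gene (lower panel) in 14 libraries. Nfatc1 took 42.6% to 45.4% in controls and 67.4% to 82.2% in mid and late liver, while Ppp3cc held the largest part of calcineurin A in every library shown.

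No calcineurin gene passed the test at any liver stage. *Ppp3ca*, *Ppp3cb* and *Ppp3cc* encode the 3 catalytic A subunits. *Ppp3ca* (chromosome 3, 136670124 to 136937727) was at 44.8, 66.3 and 67.2 CPM in controls, at 44, 41.4 and 41.7 CPM in mid liver and at 32.8 and 52.1 CPM in late liver. It was below the controls within both series, and its log2 fold change in mid and late liver was -0.46 (SE 0.24, adjusted p = 0.136). It passed without early liver 1 (-0.47, adjusted p = 0.0346) or early liver 2 (-0.47, adjusted p = 0.0338). *Ppp3cb* (chromosome 14, 20499364 to 20546573) ranged from 29.1 to 48.1 CPM over the 14 libraries, with a log2 fold change of -0.12 (SE 0.154) in mid and late liver. *Ppp3cc* (chromosome 14, 70217865 to 70289471) ranged from 72.6 to 137 CPM, with a log2 fold change of 0.1 (SE 0.184) in mid and late liver. Per length *Ppp3cc* was the largest part of calcineurin A in all 14 libraries, at 52.9% ± 3.89 (SD, n = 3) in controls, 60% ± 7.5 (SD, n = 3) in mid liver and 66.4% ± 7.05 (SD, n = 2) in late liver. *Ppp3r1*, the B subunit, was at 109 CPM ± 12.3 (SD, n = 3) in controls and 111 CPM ± 4.12 (SD, n = 2) in late liver, with log2 fold changes of -0.12 (SE 0.138, adjusted p = 0.496) in mid and late liver together and -0.0087 in late liver. The testis-type B subunit *Ppp3r2* did not pass the filter on low counts and stayed at or under 1.49 CPM.

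Of the inhibitors, none passed the edgeR test. *Rcan1* (chromosome 16, 92391953 to 92470867), which binds calcineurin and limits it, was low throughout, at 13.5, 15 and 9.94 CPM in controls. Mid liver gave 16.8, 14.3 and 17 CPM and late liver 25.2 and 17.5 CPM. Mid liver 2 was below control 2, so the groups overlapped, and the 2 late liver libraries were the highest of all 14. The log2 fold change was 0.48 (SE 0.211, adjusted p = 0.0861) for mid and late liver and 0.66 (SE 0.258, adjusted p = 0.0697) for late liver, where DESeq2 called it (0.69, adjusted p = 0.0463). *Rcan3* (chromosome 4, 135412308 to 135433853) was at 21.9 CPM ± 0.586 (SD, n = 3) in controls and 20.9 CPM ± 4.06 (SD, n = 3) in mid liver, with a log2 fold change of -0.0053 (SE 0.173) in mid and late liver together. *Cabin1* (chromosome 10, 75646112 to 75764341), a large nuclear protein that binds calcineurin and MEF2, was at 158 CPM ± 47.7 (SD, n = 3) in controls and 152 CPM ± 35.9 (SD, n = 2) in late liver, with a log2 fold change of 0.0037 (SE 0.149) in mid and late liver together. The sign of the *Rcan3* and *Cabin1* values changed with the scaling of the counts. *Rcan2* did not pass the filter, and its highest value was 1.89 CPM.

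**Figure D4:**
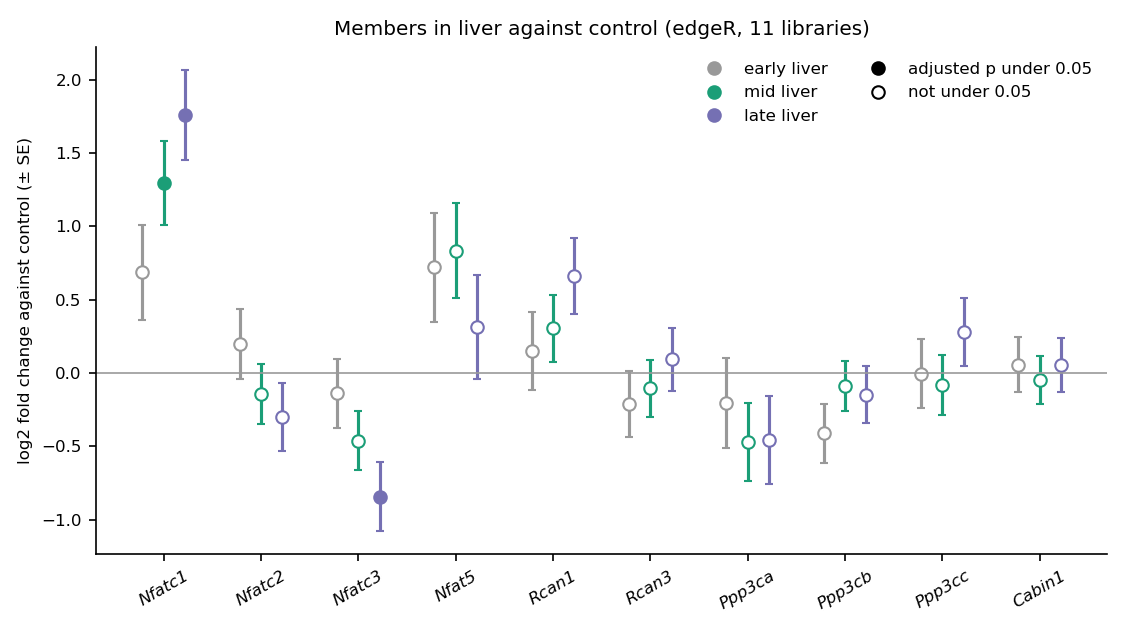
Log2 fold change against control with its standard error for the 10 genes in early, mid and late liver, from 1 edgeR model on 11 libraries; filled points have an adjusted p under 0.05. Filled points are Nfatc1 in mid (1.30) and late liver (1.76) and Nfatc3 in late liver (-0.84).

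The promoters of *Rcan1* are shown because its annotated starts behaved unlike each other. The 250 bases before the main and the internal start are printed from RefSeq (GRCm38.p6, minus strand, 5′ to 3′), with capitals for the NFAT core letters GGAAA or, on the other strand, TTTCC.
Rcan1 main promoter, chr16:92466170-92466419: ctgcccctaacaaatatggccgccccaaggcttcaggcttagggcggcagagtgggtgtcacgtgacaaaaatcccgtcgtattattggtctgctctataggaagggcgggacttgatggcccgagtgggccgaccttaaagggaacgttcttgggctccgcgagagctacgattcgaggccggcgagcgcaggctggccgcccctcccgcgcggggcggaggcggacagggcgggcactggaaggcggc
Rcan1 internal promoter, chr16:92400079-92400328: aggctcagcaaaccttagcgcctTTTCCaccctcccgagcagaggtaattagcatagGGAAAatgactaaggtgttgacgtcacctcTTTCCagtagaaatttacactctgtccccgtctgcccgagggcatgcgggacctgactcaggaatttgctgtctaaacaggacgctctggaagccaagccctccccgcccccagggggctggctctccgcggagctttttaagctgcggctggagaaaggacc

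The internal window held 3 matches to these letters and the main window 0. Among the promoters found for 7 members, that of *Ppp3cb* and an *Nfatc2* promoter also held 3. Neither of these genes passed the test in mid and late liver. Of 32851 promoter windows of the same length, 6.39% held at least 3 and 44.4% held none. A match is only a run of letters and says nothing of binding.

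Transcripts from the main start (92466143 to 92466146) carried most of *Rcan1*, at 11.7, 15 and 9.15 CPM in controls, between 8.33 and 16.3 CPM in mid liver and at 16.4 and 16.8 CPM in late liver. Transcripts from the internal start (92399978 to 92400077) were at 0.676, 0 and 0 CPM in controls. They were at 8.46 CPM in mid liver 1 and 7.09 CPM in late liver 1, both of the TG series, but at 0.465 and 0 CPM in mid liver 2 and 3 and 0.7 CPM in late liver 2 of the XC series. The internal start held 55.8% of *Rcan1* TPM in the oligo-dT day 0 library, beside 5.02% in control 1. As a row of the count table its log2 fold change in mid and late liver was 4.16 (SE 1.36, adjusted p = 0.0368), but the adjusted p was 0.0981 without control 2, 0.0814 without control 3, 0.17 without the series term and 0.0638 in DESeq2. The row did not pass the filter without control 1, early liver 1, mid liver 1, mid liver 2, late liver 1 or late liver 2. The share test gave an exact permutation p of 0.357 (5 against 3 libraries).

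Before the mid stage the members did not pass the test. In early liver against control 0 of the 14600 tested genes passed in edgeR, 1493 (10.2%) had an unadjusted p under 0.05, and DESeq2 called 350. The 2 early liver libraries differed: early liver 1 had 711 CPM of *Nfatc1* and 76.3 CPM of *Nfat5*, and early liver 2 had 349 and 30.4 CPM, close to the XC controls. For *Nfatc3* the order was the reverse, with 223 CPM in early liver 1 and 330 CPM in early liver 2. The log2 fold change of *Nfatc1* in early liver was 0.69 (SE 0.323, adjusted p = 0.504). Early spleen against control also gave 0 of 15449 genes in edgeR, with 970 (6.28%) at an unadjusted p under 0.05 and 14 by DESeq2, and *Nfatc1* was at 362 and 260 CPM there. Early liver against early spleen gave 0 in edgeR, with 1391 (9%) at an unadjusted p under 0.05 and 59 by DESeq2. Late against mid liver gave 0 as well, with 780 (5.34%) unadjusted and 32 by DESeq2, and the *Nfatc1* log2 difference was 0.46 (SE 0.314, adjusted p = 0.926). The single mid spleen library had 431 CPM of *Nfatc1*, above every control and both early spleen libraries. The undivided cells had 274 CPM, between control 1 and control 3. Neither group, of 1 library each, was compared with another by a test.

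Ordered per length in the controls, *Nfatc1* led with 56.4 TPM ± 23.2 (SD, n = 3), followed by *Ppp3cc* with 52.6 TPM ± 14.6 and *Nfatc3* with 52.4 TPM ± 17.5, and these did not differ beyond their spread. *Cabin1* followed with 37.3 TPM ± 18.3 and *Ppp3ca* with 31.7 TPM ± 12.9, which lay within each other's spread. *Nfatc2* with 17.9 TPM ± 8.61 was below *Ppp3ca* in every control, and *Ppp3cb* with 15 TPM ± 1.75 lay within the spread of *Nfatc2*. *Rcan3* with 8.94 TPM ± 1.24, *Rcan1* with 5.64 TPM ± 0.805 and *Nfat5* with 4.68 TPM ± 0.776 closed the order, each mean apart from its neighbours by more than their SD. In control 3, however, *Nfat5* was at 5.552 TPM and *Rcan1* at 5.528 TPM, so their order did not hold in every control. *Nfatc4*, the remaining calcium-dependent NFAT gene, was near the floor of measurement, at 1.14 CPM ± 0.586 (SD, n = 3) in controls and 0.281 CPM ± 0.157 (SD, n = 2) in late liver, and fell with a log2 fold change of -2.18 (SE 0.503, adjusted p = 0.0157) there and -1.57 (SE 0.366, adjusted p = 0.0105) in mid and late liver together.

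The genes around this core were read from 8 lists holding 65 genes, of which 61 passed the filter. Unless another stage is named, their log2 fold changes are for mid and late liver together against control. Their counts stand beside the 47.3% of all genes that passed in mid and late liver, and the targets among them are not independent evidence, since several were known from earlier work on these samples. *Calm3*, which encodes calmodulin, the carrier of the calcium signal to calcineurin, averaged 91.5 CPM ± 24.5 over the controls (SD, n = 3), 262 CPM ± 90.3 over mid liver (SD, n = 3) and 354 CPM ± 93.7 over late liver (SD, n = 2), a log2 fold change of 1.66 (SE 0.306, adjusted p = 0.00677) in mid and late liver together. *Calm2* rose by 0.54 on the log2 scale.

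All 9 genes of store-operated calcium entry and the IP3 receptors passed, 3 higher and 6 lower. *Orai1*, which forms the main calcium channel of T cells, rose from 74.8 CPM ± 4.42 (SD, n = 3) to 232 ± 92 (SD, n = 2) in late liver, with a log2 fold change of 1.49 (SE 0.314, adjusted p = 0.0131) there and 1.36 (SE 0.265, adjusted p = 0.00719) in mid and late liver together. *Orai2*, a channel subunit that dampens the current when joined to ORAI1, fell from 309 CPM ± 87.4 to 84.8 ± 32.4 in late liver, with a log2 fold change of -1.81 there and -1.77 (SE 0.264, adjusted p = 0.00576) in mid and late liver together. The IP3 receptors *Itpr2* and *Itpr3*, which release calcium from the endoplasmic reticulum, fell with log2 fold changes of -1.79 and -1.11. The median over the list was -0.78.

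Of 7 genes for kinases and scaffolds that return NFAT to the cytoplasm or hold it there, 2 fell and 5 did not pass. *Dyrk2* averaged 99.5 CPM ± 14.8 over the controls (SD, n = 3) and 25.6 CPM ± 10.8 over late liver (SD, n = 2), with a log2 fold change of -1.96 there and -1.7 (SE 0.294, adjusted p = 0.00638) in mid and late liver together, for which *Gsk3b* had -0.8 (SE 0.188, adjusted p = 0.0112). Of 6 other inhibitors, anchors and immunophilins 2 rose and 3 fell. *Fkbp1a*, which encodes the FK506-binding protein, went from 175 CPM ± 26.1 (SD, n = 3) to 678 ± 310.2 (SD, n = 2) in late liver, with a log2 fold change of 1.73 there and 1.61 (SE 0.309, adjusted p = 0.007) in mid and late liver together. *Akap5*, an anchor of calcineurin, and the scaffolds *Homer2* and *Homer3* fell with log2 fold changes of -1.53, -2.43 and -1.71, from control means of 5.25, 0.924 and 3.48 CPM.

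The partner factors split, with 3 of 8 higher and 4 lower. The AP-1 genes *Fos* and *Jun* fell from 1098 CPM ± 421 and 843 ± 51.1 (SD, n = 3 each) in controls to 110 ± 128 and 110 ± 104 in late liver (SD, n = 2 each). Their log2 fold changes in mid and late liver together were -3.92 (SE 0.9, adjusted p = 0.0124) and -3.15 (SE 0.752, adjusted p = 0.0139), beside -3.91 and -3.31 in late liver. Without control 1 they were -2.45 and -1.88, and in the XC series alone -2.39 and -2.02. *Fos* was also -4.68 without control 2, -3.13 without late liver 1 and -4.56 without late liver 2. The other AP-1 genes of the list were mixed in edgeR. *Junb* fell (-1.22, adjusted p = 0.0301), *Batf* rose (0.87, adjusted p = 0.00723) and *Fosl2* did not pass (0.56, adjusted p = 0.299). The alternatives were not run for *Junb*, *Batf* and *Fosl2*. *Irf4*, a partner of BATF, rose from 2.91 CPM ± 1.67 (SD, n = 3) to 173 ± 48.5 (SD, n = 3) in mid liver, with a log2 fold change of 5.87 there and 5.64 (SE 1.13, adjusted p = 0.00887) in mid and late liver together. *Foxp3* rose by 1.56 (SE 0.571, adjusted p = 0.0497) from a control mean of 0.558 CPM, and its highest value was 2.98 CPM. That call was lost with counts scaled from TPM (0.64, adjusted p = 0.49), without the series term (0.066), with the first run only (0.0682) and with 14 libraries (0.0633). In the undivided library *Fos* and *Jun* were at 935 and 857 CPM, near the control means.

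**Figure D5:**
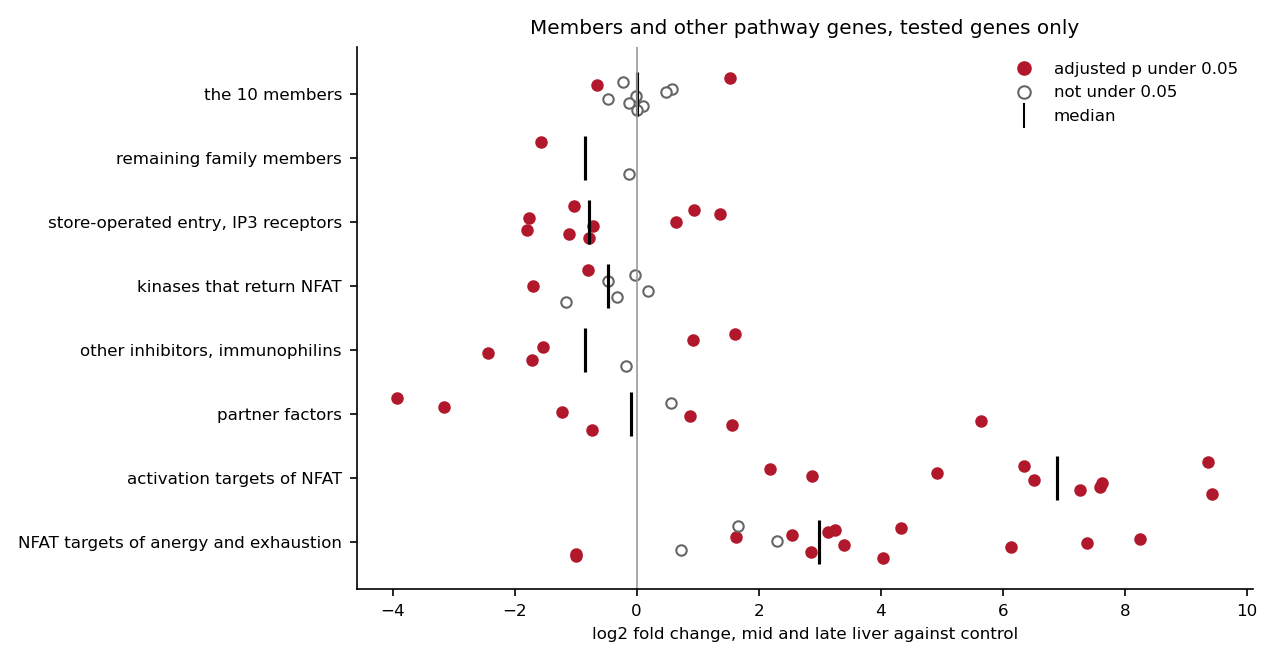
Log2 fold change of mid and late liver against control for the 10 members and for tested genes of the lists, calmodulin left out; filled points have an adjusted p under 0.05 and bars mark list medians. The members lie between -0.65 and 1.53, and the points of the activation targets include Il2 and Csf2, which reached 10 counts in no control.

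The lists of known NFAT targets had larger median log2 fold changes than the members. Of 12 activation targets 10 passed the filter. *Il2* and *Csf2* reached 10 counts in no control, so they could pass it only by being higher elsewhere. The other 8 all rose, with a median log2 fold change of 6.43. Control and mid liver means (SD, n = 3 each) were 1.32 CPM ± 1.03 and 1420 CPM ± 872 for *Xcl1* and 1.48 CPM ± 1.6 and 339 CPM ± 247 for *Ccl3*, both chemokines. For the cytokines *Il2* and *Csf2* they were 0.0258 CPM ± 0.0232 and 36.9 CPM ± 27.9, and 0.035 CPM ± 0.0606 and 5.38 CPM ± 5.1. Late liver means (SD, n = 2 each) were 1055 CPM ± 1039 for *Xcl1* and 260 CPM ± 209 for *Ccl3*. There *Il2* was at 10.2 CPM ± 13.6 and *Csf2* at 10.4 CPM ± 1.22. Of 16 targets tied to anergy and exhaustion 11 rose and 2 fell, with a median of 2.996. *Pdcd1*, which encodes PD-1, was at 1.66 CPM ± 0.691 (SD, n = 3) in controls and 751 ± 317 (SD, n = 2) in late liver, a log2 fold change of 8.77 there and 8.24 (SE 1.45, adjusted p = 0.00714) in mid and late liver together. *Lag3*, *Tnfrsf9* and *Nr4a2* had log2 fold changes of 7.37, 6.13 and 4.32. Without control 1, 6 of 14170 genes passed in mid and late liver, and all 26 called genes among the 27 chosen from these lists lost their call while keeping their direction. *Lag3* was then 8.15, while *Tnfrsf9* was 7.01 without control 3 and *Homer2* -3.12 without late liver 2. *Foxp3* also lost its call without control 2, control 3, mid liver 1, mid liver 3, late liver 1 or late liver 2. *Calm2* lost it without control 3 or any one of the mid and late liver libraries. *Itpr3*, *Gsk3b*, *Fos*, *Jun* and *Homer3* lost it without late liver 1, and *Homer3* also without control 2.

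The genes whose levels ran most like a member's were found by Pearson's r of log2 CPM over the 14 libraries, which share series and stage, so these values are descriptions. For *Nfatc1* they were *Gnptab* (r = 0.978), *Ppp1r16b* (0.976), *Arel1* (0.973), *Hif1a* (0.966) and *Tspan5* (0.964). For *Nfatc2*, which followed the series, they were *Heatr5b* (0.992), *Arfgef2* (0.991), *Tubgcp6* (0.991), *Mcm3ap* (0.988) and *Rubcn* (0.987). For *Nfat5* they were *Tfrc* (0.94), *Slc29a3* (0.938), *Rel* (0.918), *Cdv3* (0.912) and *Cep83* (0.905). For *Rcan1* they were *Zdhhc16* (0.929), *Dedd* (0.924), *Btbd10* (0.921), *Ptges2* (0.912) and *Ap2m1* (0.904).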

How the data were processed

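TCR_Tg101 were sorted by FACS and their RNA sequenced on low-input libraries in 2 batches. The authors quantified transcripts with kallisto against mouse transcripts (submitters' notes name GRCm38 and mm10; versions not given in the sources used here) and deposited estimated counts and TPM for 118783 transcripts in each of 26 runs. Runs titled X and X-2 were taken as 1 library and summed, giving 15 libraries. Of the transcripts 98.2% matched GENCODE vM21, and estimated counts were summed per gene and rounded.

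Genes reaching 10 counts in 6 or more libraries entered edgeR 4.0.16 (R 4.3.3; trimmed-mean scaling, robust quasi-likelihood F-test, group plus series, Benjamini-Hochberg threshold 0.05) on 11 libraries (5 residual degrees of freedom), or 14 for spleen comparisons. Mid and late liver together is the mean of the mid and the late liver coefficient, with equal weight, minus control. Standard errors were derived from the F statistic. CPM values use scaling over the 14 libraries. Transcript starts within 500 bases were joined, and shares were compared by two-sided exact permutation. The fit was also run on simulated counts with few changed genes and no series effect. That run cannot show how calls behave where many genes move or the series differ. DESeq2 1.42.0 and other settings were alternatives.

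The members and lists were chosen with earlier results of these data known. Named genes are all members, the remaining family genes, and per list at most 4 passing genes with the largest change. *Junb*, *Batf* and *Fosl2* were added to give all AP-1 genes of their list. Likeness took the top 5. Each library's depth is its summed estimated counts, which leaves values that rest on a few counts, such as *Il2* in controls or the internal *Rcan1* start, imprecise. The oligo-dT library entered no test. Whether the series is the study's batch comes from sample titles. Promoters were found for 7 of the 10 members. One gene of the lists is not reported here.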

Additional observations from a re-analysis of the deposited data

Results flagged for a closer look

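The oligo-dT library entered no group and no model, and 2 of the 10 members exceeded there the highest of the 3 control libraries. *Ppp3cb* stood at 47.1 TPM against at most 16.9 TPM in the controls, which made it 48.5% of calcineurin A per length in that library. *Nfat5* stood at 5.94 TPM against at most 5.55 TPM. It is a single library of another preparation, and the differences were not tested. No group held enough libraries for a search for outlying samples, and no member moved in opposite directions in all libraries of the 2 series.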

How the results depend on the processing

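The direction of *Nfatc1*, *Nfatc3*, *Nfat5*, *Rcan1* and *Ppp3ca* held under every alternative run. In mid and late liver the *Nfatc1* call was lost without control 1 (adjusted p 0.054), without the series term (0.0537) and in the XC series alone (0.0998). The mid liver call was lost in the latter settings (0.113 and 0.182), and the late liver call without the series term (0.0827). In XC alone late liver holds 1 library, and its *Nfatc1* log2 fold change was 1.845. In mid and late liver together the *Nfatc1* log2 fold change ran from 1.44 to 1.73 with 1 library left out and from 1.36 to 1.69 otherwise. *Nfatc3* also lost its call without the series term (0.131) and in XC alone (0.175), and its late liver call without the series term (0.124). In XC alone its late liver log2 fold change was -0.72. *Calm2* and *Itpr3* lost theirs without the series term (0.149 and 0.0655), and *Calm2* also without a filter on low counts (0.0669) and with counts scaled from TPM (0.0836). DESeq2 also called *Nfat5* in mid liver (adjusted p 0.0389).

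Values near 0 changed sign. *Rcan3* was 0.0224 with DESeq2, 0.0231 with relative log scaling, 0.006 with counts scaled from TPM, 0.0154 with 14 libraries and 0.139 in XC alone. *Cabin1* was -0.0685 without the series term, -0.0067 without a filter, -0.0359 with at least 10 counts in every library, -0.0166 with the first run only, -0.0059 with counts scaled from TPM, -0.0872 in XC alone and -0.0138 without both early liver libraries, a setting chosen after seeing the data. With 1 library left out *Rcan3* ran from -0.0794 to 0.143, *Cabin1* from -0.077 to 0.0965, *Ppp3cb* from -0.232 to 0.0014 and *Ppp3cc* from -0.0299 to 0.228.

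Genes called in mid and late, mid and late liver numbered 6905, 4567 and 5475. Without the series term they were 4238, 1385 and 2693. In XC alone, where fewer libraries entered and late liver held 1 library, mid and late liver together gave 0 and mid liver gave 0. With 1 library left out the counts ran from 6 to 7679 in mid and late liver and from 0 to 5973 in mid liver. In late liver, with both of its libraries kept, they ran from 148 to 6662. Early liver, late against mid liver, early spleen and early liver against early spleen gave 0, but 350, 32, 14 and 59 with DESeq2 and 1480, 434, 642 and 984 without a filter. With 1 library left out they ran from 0 to 1902, at 0, from 0 to 162 and from 0 to 973. The causes were not tested. The shares of the upstream and downstream *Nfatc1* starts kept their direction under the alternatives run, the upstream difference running from 60 to 75 percentage points. No paired analysis was possible because the labels give the groups no shared replicate numbers.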
